A study of Mus musculus with 4 samples.

Results

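The genes described here build the autophagosome and the lysosome in satellite cells, which are the stem cells that repair skeletal muscle. A list of 35 genes of autophagy initiation, membrane conjugation, cargo recognition and the lysosome was matched by symbol to the array annotation. A total of 34 genes had at least 1 probe set, out of 18193 genes named on the array, and the cargo receptor gene Optn is not analysed here. These 34 genes were read by 81 probe sets, of which 65 passed a filter on dim signals, and all 34 genes kept at least 1 probe set. For each gene the brightest kept probe set is given unless another is named.

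Autophagy encloses cytoplasm in a double membrane and delivers it to the lysosome for digestion. The Ulk1 kinase complex starts the process, a phosphatidylinositol 3-kinase complex around Becn1 marks the membrane, and a ubiquitin-like conjugation system fixes proteins of the Atg8 family to it. Receptors such as Sqstm1 then tie cargo to the Atg8 proteins, and lysosomal proteases digest what arrives. In satellite cells this turnover is known to help keep the resting stem cell state.

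Both groups were sorted YFP-positive satellite cells of 10-week-old mice that had received tamoxifen 2 weeks earlier, and all mice carried Cre in 1 copy of Pax7 (Pax7-CreERT2) and the reporter Rosa-YFP/YFP. Control mice were Calcr+/+, and Calcr-cKO mice were Calcr flox/flox, so that the calcitonin receptor gene could be deleted in Pax7-expressing cells. There were 2 biological replicates per genotype, each hybridised to its own array and numbered 1 or 2 in its title. The sources used here do not say how many mice went into a replicate, and p-values measure only the spread between these samples. The number of arrays, 4 in all, limits the precision, and with 2 against 2 an exact 2-sided permutation test cannot go below p = 0.333.

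Among the listed genes, Tfeb and Tfe3 encode transcription factors known to bind an E-box (CACGTG) within the CLEAR element of lysosomal and autophagy promoters, so the promoters of the other members were searched for it. RefSeq promoter sequences (GRCm38.p6, 250 bases before to 50 after the gene's start) were at hand for 28 of the 35 listed genes. CACGTG, which reads the same on both strands, was present for 7 of the 28 genes, or 25.0%, against 8.09% of all 27025 genes with a promoter in that table. The longer TCACGTG, searched on both strands and always overlapping a CACGTG, was present for 5 of 28 members (17.9%) and for 4.29% of all genes. The stretches of those 5 promoters, Lamp1, Ctsd, Atg3, Atg7 and Atg14, are shown with CACGTG in capitals because they carry the letters through which 2 members are known to act on others. A match is a description of these letters and says nothing of binding in these cells.
Lamp1 (chr8:13159080-13159170, + strand): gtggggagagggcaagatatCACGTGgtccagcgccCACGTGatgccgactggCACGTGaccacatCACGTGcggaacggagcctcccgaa
Ctsd (chr7:142387900-142387945, - strand): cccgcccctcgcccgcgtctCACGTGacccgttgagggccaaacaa
Atg3 (chr16:45158715-45158783, + strand): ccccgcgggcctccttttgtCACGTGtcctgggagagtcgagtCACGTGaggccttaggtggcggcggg
Atg7 (chr6:114670944-114670989, + strand): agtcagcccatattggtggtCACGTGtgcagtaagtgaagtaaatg
Atg14 (chr14:47568425-47568455, - strand): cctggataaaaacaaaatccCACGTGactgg
The Lamp1 stretch held 4 copies, between 61 and 15 bases before the gene's start, and Atg3 held 2, at 94 and 71 bases. Ctsd also held 2, the copy shown at 98 bases and another, not shown, at 245 bases before the start. The copy of Atg7 lay 132 bases before the start. Atg5 and Ctsl each held CACGTG without the longer motif.

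The targeted gene read lower on both cKO arrays, without passing the adjusted test. Calcr read 1268 and 1424 on control arrays 1 and 2 and 568 and 684 on cKO arrays 1 and 2, a log2 difference of -1.11 (limma unadjusted p = 0.00292, adjusted p = 0.99999). The sources used here do not place its probe set inside or outside the floxed stretch, so this is no check of the deletion itself. The satellite cell markers Pax7, Myf5, Cdh15, Vcam1, Itga7, Sdc4, Chrdl2 and Spry1 were above the filter signal of 63.9 on all 4 arrays. Markers of other cells were present as well and moved with the arrays. The summed signal of 15 endothelial markers was 10623 and 9353 on the arrays numbered 1 and 2312 and 2533 on those numbered 2. For 19 macrophage and other leukocyte markers the sum was 1690 on control 1, 3579 on control 2, 1926 on cKO 1 and 754 on cKO 2.

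No autophagy or lysosome gene passed the test between cKO and control cells, and the differences were small. The log2 differences of the 34 genes ran from -0.41 for Atg5 to 0.61 for Atg9a, with a median of -0.09 beside -0.04 over all 10140 genes tested. Of the members, 14 were above 0, against 42.7% of all genes, and 20 below. With limma and Benjamini-Hochberg adjustment over all 22519 kept probe sets, 0 of 34 had an adjusted p under 0.05 (smallest adjusted p = 0.99999), and 0 of 34 had an unadjusted p under 0.05. Over all genes the percentages called by these rules were 0.0 and 0.72. The 95% limma interval of the difference stayed within a 2-fold change in either direction for 24 of the 34 genes and reached past it for 10, so a 2-fold difference lies within the interval of those 10.

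Arrays of the 2 genotypes did not overlap for 10 of 34 members, against 20.6% of all genes. Both cKO arrays were above both control arrays for 3 (8.82%, against 8.53% of all genes), namely Atg9a, Uvrag and Gabarapl2. The reverse order, with cKO lower on both arrays, held for 7 (20.6%, against 12.1%), namely Atg5, Atg12, Atg16l1, Wipi2, Lamp1, Lamp2 and Ctsd. With arrays centred on their median the counts were 2 and 4, against 12.0% and 7.15% of all genes, so these counts moved with the scaling. The members' median, -0.09 as deposited, was then 0.00094, beside 0.05 over all genes.

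**Figure D1:**
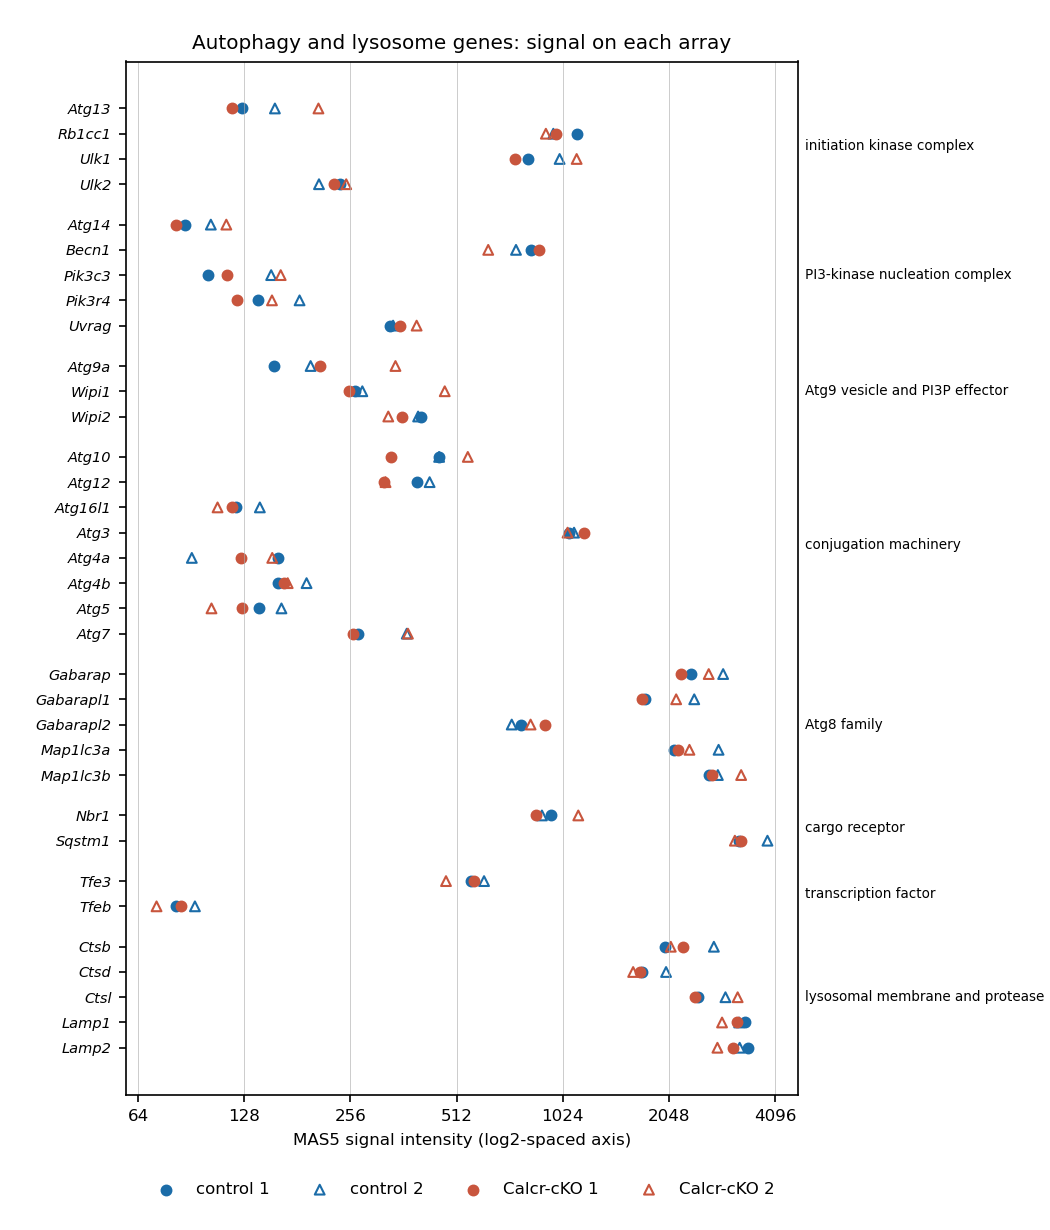
Deposited MAS5 signal (log2-spaced axis) of the 34 genes, by role, on each of 4 arrays: circles are the arrays numbered 1, open triangles those numbered 2, blue control and red Calcr-cKO. Positions can be compared within a gene and not between genes; Atg9a has its highest point on cKO 2 (343), and for Atg7 the triangles (370 and 373) stand apart from the circles (268 and 260).

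No member of the initiation kinase complex passed the test by genotype, and the groups overlapped for all 4. Atg13, the adaptor subunit of the complex, read 126 and 156 in control and 118 and 208 in cKO, with the highest value on cKO 2 and overlap of the groups. Its log2 difference was 0.16 (95% interval -0.80 to 1.12), and it was -0.25 without cKO replicate 2. Rb1cc1, the scaffold subunit also known as FIP200, read 1125 and 963 in control and 983 and 917 in cKO, which also overlapped, at -0.13 (-0.70 to 0.43). The kinase gene Ulk1 was near 0 by genotype at 0.02 (-0.67 to 0.70). Its relative Ulk2 differed by 0.10 on the brightest probe set and by 0.07 and -0.35 on its other kept probe sets. In this group 3 of 4 members were above 0.

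By replicate number, Ulk1 was the member of this complex with the smallest p. It read 818 and 748 on the arrays numbered 1 and 1003 and 1121 on those numbered 2, so every number 2 array was above every number 1 array. The mean was 783 ± 50.0 at number 1 and 1062 ± 83.5 at number 2 (SD, n = 2), a 1.36-fold difference (log2 0.44, limma unadjusted p = 0.0662, adjusted p = 0.402), and the other kept probe set of Ulk1 was at 0.37. Atg13 was 1.47-fold higher at number 2, without overlap (limma adjusted p = 0.464).

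Genes of the phosphatidylinositol 3-kinase complex, which makes the lipid that later factors bind, were also mixed by genotype. Uvrag, a subunit that directs the complex to later steps, read 332 and 338 in control and 355 and 394 in cKO. Both cKO arrays were the higher ones, by a log2 difference of 0.16 (-0.56 to 0.87). Pik3r4, the regulatory subunit, read 140 and 184 in control and 122 and 153 in cKO, and the groups overlapped (-0.23, -1.09 to 0.63). The catalytic subunit gene Pik3c3, the scaffold gene Becn1 and Atg14, the subunit specific to autophagosome formation, were at 0.13, -0.09 and 0.03.

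The same complex was split by replicate number. Pik3c3 read 101 and 114 at number 1 and 153 and 162 at number 2, a 1.46-fold difference without overlap (log2 0.55, -0.12 to 1.22; limma adjusted p = 0.466). Pik3r4 and Atg14 were also higher on both number 2 arrays (both 1.28-fold). Becn1 went the other way, with 832 and 877 at number 1 against 755 and 629 at number 2 (log2 -0.31, -0.82 to 0.20; limma adjusted p = 0.602). Its other kept probe set was at -0.21, with overlap.

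Atg9a had the smallest genotype p of all members, though it did not pass. It encodes the membrane protein whose vesicles seed the autophagosome. The control arrays read 155 and 197 and the cKO arrays 209 and 343, so both cKO arrays were higher and cKO 2 stood highest. Means were 176 ± 29.7 and 276 ± 94.8 (SD, n = 2), a 1.53-fold difference (log2 0.61, -0.29 to 1.51; limma unadjusted p = 0.153). Without cKO replicate 2 the log2 difference was 0.26, and without cKO replicate 1 it was 0.97. Atg9a has 1 probe set on the array. It was also 1.44-fold higher at number 2 than at number 1, with overlap.

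Wipi1, whose product binds the lipid made by the kinase complex, also had its highest value on cKO 2. It read 264 and 277 in control and 253 and 474 in cKO, with cKO 1 the lowest array and the groups overlapping (log2 0.36, -0.55 to 1.27). The difference was -0.093 without cKO replicate 2. Of its 4 kept probe sets, 3 were above 0 by genotype and 4 by replicate number. Its paralogue Wipi2 read 406 and 398 in control and 359 and 328 in cKO, both lower, at -0.23 (-0.94 to 0.48), and 1 of its 3 kept probe sets was above 0.

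Within the conjugation machinery, 6 of 8 members were below 0 by genotype as deposited, 4 after quantile normalization and 3 after median centring. The members with the smallest p were the partners Atg12 and Atg5, whose products are joined into 1 conjugate. Atg12 read 394 and 429 in control and 318 and 322 in cKO, and the cKO arrays were both below the control arrays. The means were 412 ± 24.8 and 320 ± 3.0 (SD, n = 2), a 1.29-fold difference (log2 -0.36, -1.07 to 0.35; limma unadjusted p = 0.268). Its second kept probe set differed by -0.10. Atg5 read 141 and 163 in control and 126 and 103 in cKO, again without overlap, at 1.33-fold lower (log2 -0.41, -1.25 to 0.44; limma unadjusted p = 0.295). Within each replicate number Atg12 was at -0.31 and -0.41, and Atg5 at -0.16 and -0.65. Without overlap the sign could only be the same in both, so this adds no support. Atg16l1, which joins the Atg12 and Atg5 conjugate and places it on the membrane, was at -0.22 with cKO below control on both arrays. Atg5 and Atg16l1 each kept 1 probe set, and the probe sets of Atg5 left out as dim were at 0.21 and 0.31, opposite in sign to the kept one.

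Remaining conjugation genes were near 0 or mixed by genotype. The E1-like enzyme gene Atg7 read 268 and 370 in control and 260 and 373 in cKO, a log2 difference of -0.02. The same arrays set by number gave 264 ± 5.47 and 371 ± 1.99 (SD, n = 2), 1.40-fold higher at number 2 (limma unadjusted p = 0.0907, adjusted p = 0.453). Its second kept probe set was at 0.87 by number with overlap, since only control 2 stood high there (208). Atg10, an E2-like enzyme gene, read 455 and 333 at number 1 and 457 and 551 at number 2, without overlap (log2 0.36). The other E2-like gene Atg3 differed by 0.04 by genotype and -0.05 by number. The protease genes Atg4a and Atg4b, which trim Atg8 proteins, were at 0.21 and -0.06 by genotype, and Atg4a changed sign between the arrays numbered 1 (-0.34) and those numbered 2 (0.75).

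Atg8 family genes, whose products coat the autophagosome, were mixed by genotype, 2 above 0 and 3 below, and all 5 intervals stayed within a 2-fold change. Gabarapl2 read 778 and 734 in control and 912 and 830 in cKO, so both cKO arrays were higher (log2 0.20, -0.39 to 0.79). Its second kept probe set was at 0.02, with overlap. Map1lc3b, the gene of the common autophagosome marker LC3B, read 2661 and 2819 in control and 2715 and 3282 in cKO, with overlap, at 0.12 (-0.27 to 0.52). All 4 of its kept probe sets were above 0. It was -0.013 without cKO replicate 2. Gabarap, Gabarapl1 and Map1lc3a were at -0.11, -0.10 and -0.12.

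By replicate number, 4 of the 5 Atg8 genes were higher on both number 2 arrays as deposited, as were 22.4% of all genes. With median centring 40.6% of all genes were, and the Atg8 count is not given in that setting. Gabarapl1 read 1756 and 1720 at number 1 and 2416 and 2147 at number 2. Its means were 1738 ± 25.4 and 2282 ± 190 (SD, n = 2), a 1.31-fold difference (log2 0.39, 0.03 to 0.75), with a limma unadjusted p of 0.0370 and an adjusted p of 0.319. The second probe set of Gabarapl1 was at 0.52. Gabarap read 2366 and 2218 at number 1 and 2918 and 2656 at number 2, 1.22-fold higher (limma adjusted p = 0.445). Map1lc3a was 1.20-fold and Map1lc3b 1.13-fold higher. The second probe set of Map1lc3a (0.28) and another of Map1lc3b (0.22) overlapped by number. Gabarapl2 was the exception at -0.11 as deposited, and it turned to 0.08 when arrays were centred on their median.

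For both cargo receptor genes tested the genotypes overlapped, with differences of opposite sign. Sqstm1, the gene of p62, which is itself degraded by autophagy, read 3230 and 3897 in control and 3270 and 3150 in cKO. The groups overlapped and only control 2 stood higher (log2 -0.14, -0.52 to 0.23). Its second probe set was at -0.39, also with overlap, and lower in cKO within each number (-0.43 and -0.34). Nbr1, a related receptor gene, read 950 and 894 in control and 859 and 1133 in cKO, at 0.10 (-0.51 to 0.71). By number both were above 0, at 0.11 and 0.16, with overlap on the brightest probe sets. The second probe sets of Sqstm1 (0.48) and Nbr1 (0.28) were higher on both number 2 arrays.

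The transcription factor genes Tfeb and Tfe3, which switch on lysosome genes when nutrients are short, had their lowest signal on cKO 2. Tfeb read 81.7 and 92.7 in control and 84.6 and 72.2 in cKO, close above the filter signal of 63.9. Tfe3 read 562 and 612 in control and 574 and 478 in cKO, with overlap. Their log2 differences were -0.15 (-1.07 to 0.76) and -0.16 (-0.83 to 0.51), and both remained below 0 under quantile normalization and median centring. By number they were at -0.02 and -0.07 and turned above 0 with median centring (0.16 and 0.12).

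Lysosomal membrane and protease genes were bright and differed little. In 4 of 5 cases cKO was below control, also after quantile normalization and median centring, and all 5 intervals stayed within a 2-fold change. Lamp2, whose product lines the lysosome and takes part in its fusion, read 3431 and 3250 in control and 3103 and 2811 in cKO, both lower. Means were 3341 ± 127 and 2957 ± 206 (SD, n = 2), a 1.13-fold difference (log2 -0.18, -0.53 to 0.18; limma unadjusted p = 0.281). Its other kept probe sets were at -0.28, -0.09 and 0.07. Lamp1, its companion and the gene with 4 copies of CACGTG in the stretch printed above, read 3374 and 3240 in control and 3186 and 2897 in cKO, at -0.12 (-0.48 to 0.23). Ctsd, the aspartic protease cathepsin D, read 1720 and 2010.1 in control and 1692 and 1621 in cKO, at -0.17 (-0.63 to 0.30). The members with TCACGTG thus differed by -0.12 (Lamp1), -0.17 (Ctsd), 0.04 (Atg3), -0.02 (Atg7) and 0.03 (Atg14) between genotypes.

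Cathepsin L was the lysosomal member with the smallest p by replicate number. Ctsl read 2473 and 2422.5 at number 1 and 2962 and 3208 at number 2, without overlap. The means were 2448 ± 35.8 and 3085 ± 174 (SD, n = 2), a 1.26-fold difference (log2 0.33, 0.02 to 0.65; limma unadjusted p = 0.0391, adjusted p = 0.325). By genotype it was at 0.04 (-0.43 to 0.51).

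Cathepsin B read highest on control 2, as did other members. Control 2 was the highest array for 13 of the 34 members, and cKO 2 for another 13. The summed satellite cell markers were highest on control 2 as well (22675), so this was not particular to Ctsb. Ctsb read 1997 and 2747 in control and 2239 and 2073 in cKO for the brightest probe set, and 1082 and 1699 against 1151 and 928 for the next. Control 2 was the highest array for 4 of its 5 kept probe sets. All 5 were below 0 by genotype, from -0.39 to -0.04, and the brightest was at -0.12 (-0.61 to 0.37). Between the arrays numbered 1 the brightest probe set was at 0.16 and between those numbered 2 at -0.41. Macrophages are rich in this protease, and the summed leukocyte markers were highest on the same array. For example, Cd74 read 89.7, 451, 111 and 49.5 on control 1, control 2, cKO 1 and cKO 2, and C1qb read 26.8, 425, 126 and 85.5. Cd68 (402) and Lyz2 (532) instead had their highest signal on cKO 1, and the defining markers Adgre1, at 22.1 or less, and Itgam, at 18.0 or less, were dim on all 4. Of the 19 leukocyte markers, 6, 15, 10 and 2 were above the filter signal on these arrays in turn. Their part in the Ctsb values was not tested. Fewer cells of a type and less RNA per cell cannot be told apart in such samples.

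**Figure D2:**
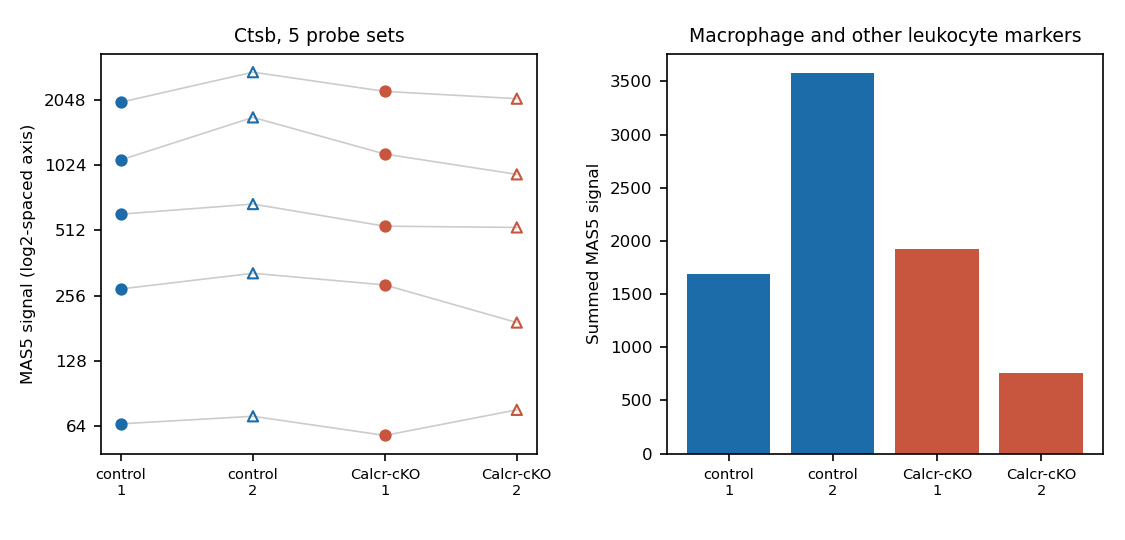
Left, MAS5 signal (log2-spaced axis) of the 5 kept Ctsb probe sets on the 4 arrays, a grey line joining each probe set; right, summed MAS5 signal of 19 macrophage and other leukocyte markers (bars from 0, 1 array each, no error bar). Control 2 has the highest bar (3579) and the highest point in 4 of the 5 Ctsb lines, and cKO 2 the lowest bar (754). Control 2 was also the highest array for 13 of the 34 members, so this is not particular to Ctsb.

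**Figure D3:**
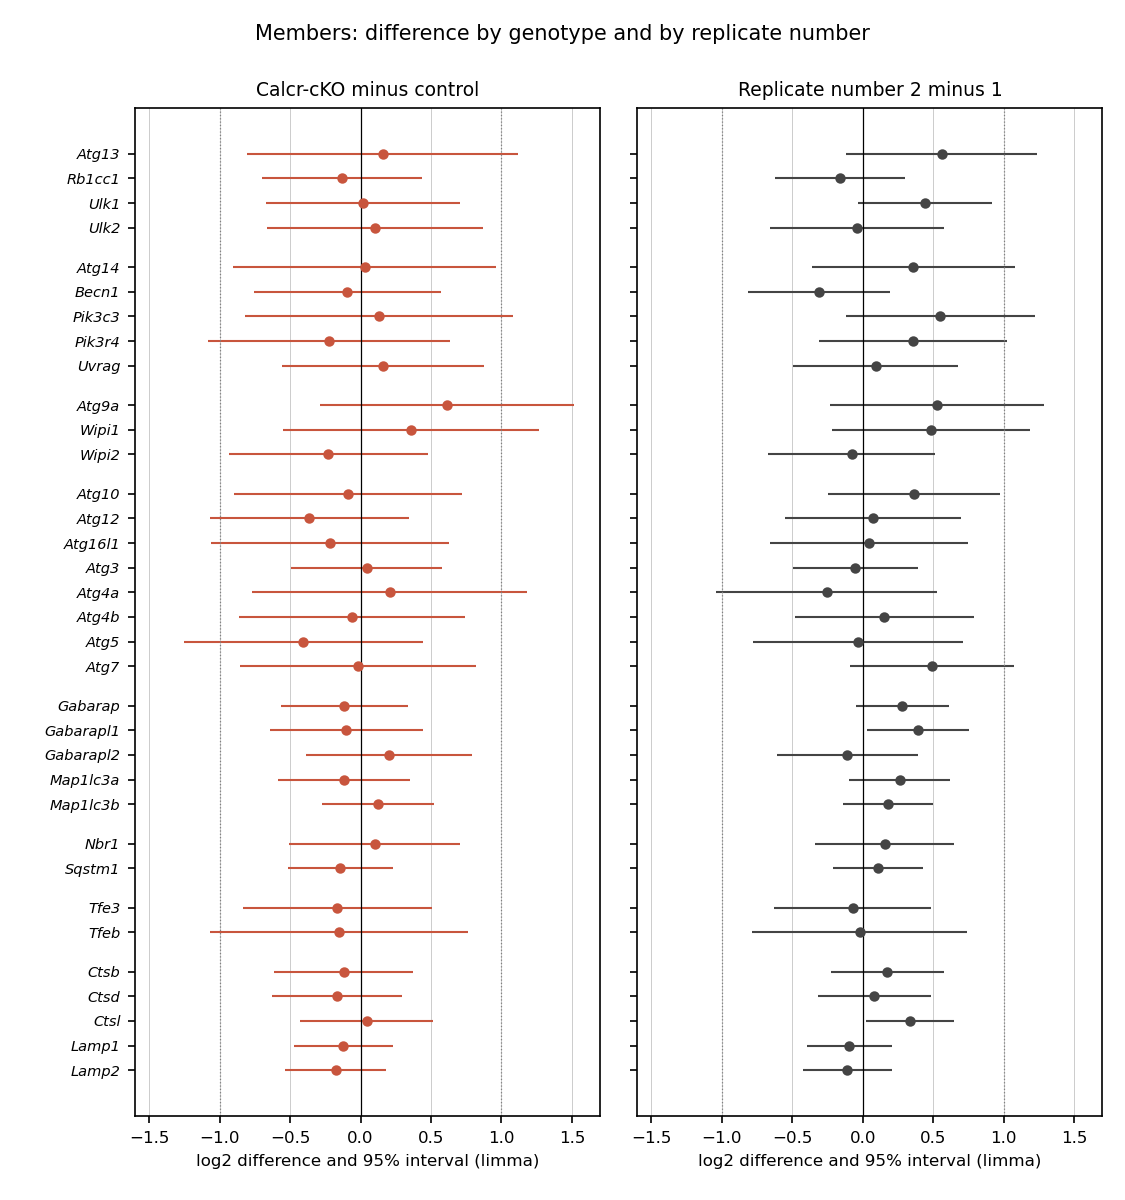
Log2 difference of each member with its 95% limma interval (2 arrays against 2), Calcr-cKO minus control on the left and replicate number 2 minus 1 on the right; dotted lines mark a 2-fold change. All 34 genotype intervals include 0, and by number only those of Gabarapl1 (0.03 to 0.75) and Ctsl (0.02 to 0.65) do not.

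Set side by side within each number, the genotype difference had the same sign in both pairs for 16 of 34 genes. It was above 0 in both for 5 genes, below 0 in both for 11 and of opposite sign for 18. Genes whose genotypes did not overlap could only have the same sign in both. Over all genes 61.7% were above 0 between the arrays numbered 1 and 32.2% between those numbered 2. The share of all genes with the same sign in both pairs is not given here, so these counts cannot be read as particular to the members. The 5 genes above 0 in both were Atg9a, Gabarapl2, Map1lc3b, Pik3c3 and Uvrag. Between the arrays numbered 1 the median difference of the members was -0.04 (range -0.45 to 0.43) beside 0.09 over all genes, and between those numbered 2 it was -0.10 (range -0.65 to 0.80) beside -0.19. These are differences of 1 array against 1 array and carry no test.

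**Figure D4:**
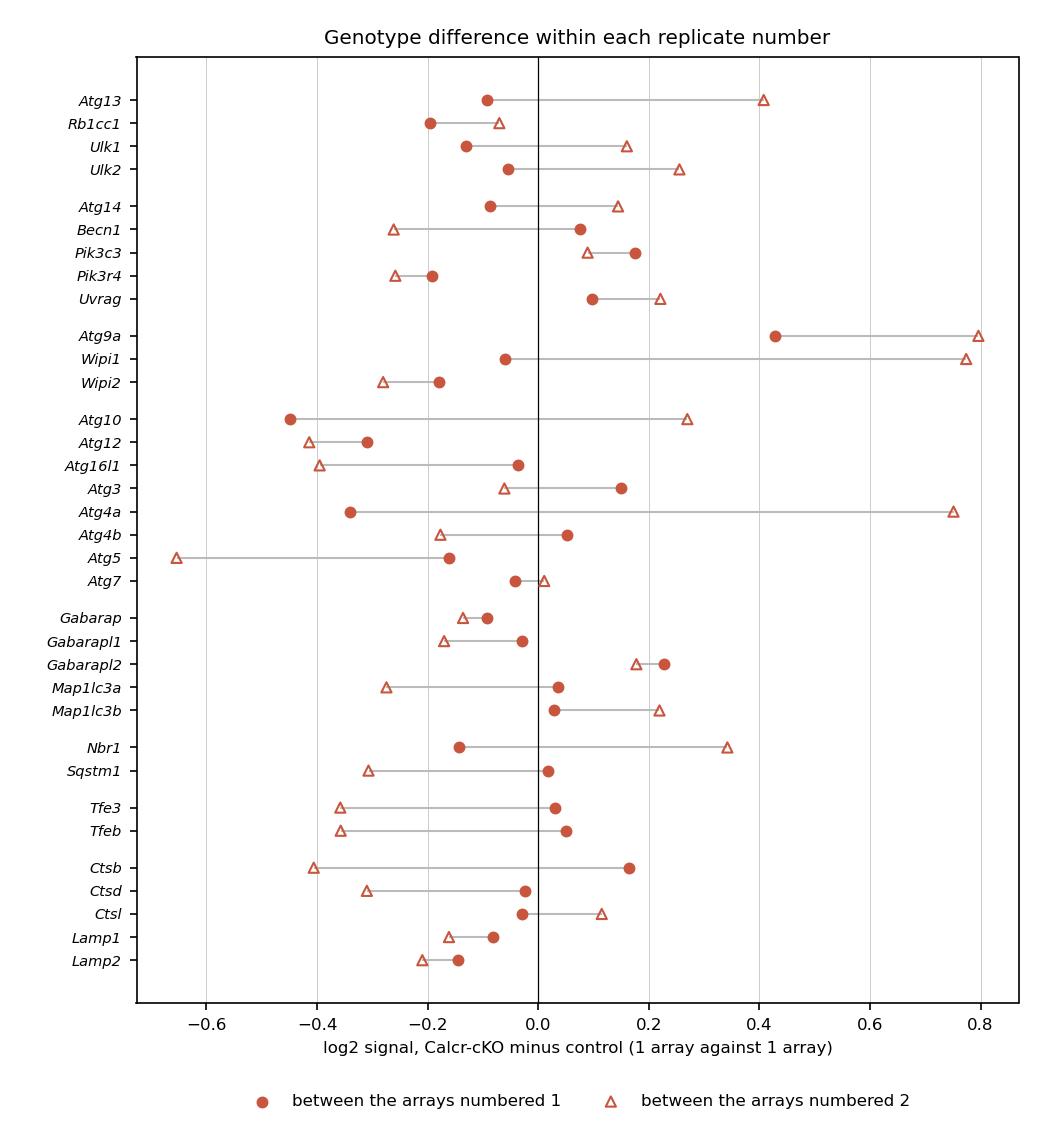
Log2 signal of Calcr-cKO minus control for each member, within the arrays numbered 1 (filled circles) and within those numbered 2 (open triangles), 1 array against 1 array. A total of 18 genes have their points on opposite sides of 0, with the widest gap for Atg4a (-0.34 and 0.75). Atg9a (0.43 and 0.80) and Atg12 (-0.31 and -0.41) have both on 1 side, as genes whose genotypes do not overlap must.

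Between replicate numbers the members leaned towards number 2. Of 34 genes, 22 were higher at number 2, against 52.9% of all genes, and 12 lower, with a median log2 difference of 0.13 beside 0.03 over all genes. Both number 2 arrays were above both number 1 arrays for 14 members (41.2%, against 22.4% of all genes) and below for 2, Becn1 and Rb1cc1 (5.88%, against 21.0%). Together these are 16 of 34, against 43.4% of all genes. With limma, 0 of 34 members had an adjusted p under 0.05 (smallest adjusted p = 0.319), while 2.82% of all genes did. At an unadjusted p under 0.05 there were 2 members, Gabarapl1 and Ctsl (5.88%, against 13.5% of all genes). Median centring moved the median of all genes to 0.21 and that of the members to 0.32, which left the members 0.10 above all genes as before. It put 32 of 34 members above 0, where 72.1% of all genes were, and 23 were higher without overlap, against 40.6% of all genes. The endothelial markers went the opposite way, with 13 of 14 tested members lower at number 2 without overlap and 11 called lower by limma. Of 10 pericyte and smooth muscle markers, 7 were lower at number 2 without overlap and 5 were called lower, and their summed signal was 18095 and 20786 at number 1 and 12862 and 10204 at number 2. Of the fibro-adipogenic progenitor markers, all 6 tested were above 0 by number, 2 of them without overlap. Pdgfra, at 58.2 or less, and Pi16, at 30.2 or less, were below the filter signal on every array and were not tested. The sum over the 8 markers of this list was 20743 and 22594 at number 1 and 27099 and 25117 at number 2. It came mostly from Col1a1, Col3a1, Dcn, Dpt and Gsn, and whether the share of these progenitors differed was not tested. All 9 tested muscle fibre markers were lower at number 2, each with overlap. Satellite cell markers summed to 15826 and 15686 at number 1 and to 22675 and 16725 at number 2. The part of these other cells in the members' values was not tested.

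Other genes of the pathway gave no call by genotype either. Over all genes 42.7% were above 0 as deposited, with a median of -0.04, and 58.3% were with median centring. The counts of the pathway lists are given only as deposited. Of the autophagy genes outside the list, 36 were tested, 19 of them above 0 and 17 below, with 0 called and a median of 0.01. In the nutrient-sensing pathway of mTORC1 and AMPK, which restrains or starts autophagy, 20 of 32 genes were above 0 (median 0.08, 0 called). Both cKO arrays were above both control arrays for 8 of these 32 genes (25.0%, against 8.53% of all genes) and below them for 2 (6.25%, against 12.1%). Flcn, a regulator of the lysosomal Rag GTPases, read 958 and 894 in control and 972 and 1277 in cKO, and Rptor, the mTORC1 scaffold, 176 and 193 against 175 and 105. Of the proton pump of the lysosome, the vacuolar ATPase, 13 of 16 genes were above 0 (median 0.10, 0 called). Both cKO arrays were the higher ones for 3 of these 16 (18.8%, against 8.53% of all genes) and the lower ones for 1 (6.25%, against 12.1%). The pump's subunit gene Atp6v0b read 317 and 437 in control and 547 and 480 in cKO, both higher (log2 0.46, limma unadjusted p = 0.190). Among 40 other lysosomal genes 24 were below 0 (median -0.07, 0 called). Arsa, the sulphatase gene of sulphatide breakdown, read 238 and 185 in control and 163 and 101 in cKO, both lower (log2 -0.70, limma unadjusted p = 0.115). Scarb2, a lysosomal membrane protein gene, read 1489 and 1482 in control and 1745 and 1902 in cKO, both higher (log2 0.29).

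The same lists held more genes with small p by replicate number, none of them past adjustment. At an unadjusted limma p under 0.05 there were 6 of 36 other autophagy genes (16.7%), 2 of 32 nutrient-sensing genes (6.25%), 1 of 16 vacuolar ATPase genes (6.25%) and 1 of 40 other lysosomal genes (2.50%), beside 13.5% of all genes. The closest to a call was Wdr45, a relative of Wipi1 that binds the same lipid. It read 279 and 261 at number 1 and 535 and 749.5 at number 2, a log2 difference of 1.23 (limma adjusted p = 0.0520). Sesn1, a stress-induced inhibitor of mTORC1, read 1214 and 954 at number 1 and 1619 and 2223 at number 2 (0.82, limma adjusted p = 0.11). Pink1, the kinase gene of mitochondrial autophagy, read 2165 and 2103 against 2828 and 2959 (0.44, limma adjusted p = 0.196). Fuca1, a lysosomal fucosidase gene, read 516 and 590 against 934 and 869 (0.71, limma adjusted p = 0.190). For the vacuolar ATPase, as deposited, 9 of 16 genes were higher on both number 2 arrays (56.3%, against 22.4% of all genes). Only 1 was lower (6.25%, against 21.0%). With median centring 40.6% of all genes were higher, and the count for this list is not given in that setting.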

How the data were processed

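Total RNA of freshly sorted cells was labelled with biotin by a small sample labelling assay and hybridised to 1 array per sample, per the labels' protocols. The authors deposited 1 linear signal intensity for each of 45101 probe sets, made with MAS5 per the submitters' processing notes. That method subtracts mismatch from match probes, which makes dim signals noisy. Any scaling target was not given in the sources used here. Median signals over all probe sets, dim ones included, were 57.8 to 70.4 over the 4 arrays, so these medians were not at 1 common level. They did not follow the genes tested. Control 1 had the highest median (70.4) and control 2 a lower one (64.3). The genes tested had a median log2 deviation from their mean over arrays of -0.06 on control 1 and 0.11 on control 2.

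Values were taken as log2(value + 1), so folds of dim genes are understated, and 64 AFFX probe sets were left out. Probe sets with a mean log2 value at or above the median (a signal of 63.9) were kept (22519 probe sets, 10140 genes with 1 symbol). limma 3.58.1 in R 4.3.3 (lmFit, eBayes with intensity trend, 2 residual degrees of freedom) compared cKO with control, and replicate number 2 with 1, with Benjamini-Hochberg adjustment over all kept probe sets at 0.05. The brightest kept probe set stood for a gene. The steps were run on simulated arrays that held no difference by replicate number. That run therefore does not show how they perform on the present arrays.

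The members and lists were chosen with earlier results of these data known. Described with every array are, per role, the 2 members with the smallest p in each comparison, further members as examples, and a few of the up to 3 genes of each pathway list with the smallest p. Alternatives were a pseudocount of 32, arrays centred on their median, quantile normalization, no filter or a 75th percentile filter, no trend, the mean over probe sets, unsuffixed probe sets only, a replicate block and leaving out each array; where an array was left out, its group's lone array was assumed to vary like the others.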

Additional observations from a re-analysis of the deposited data

How the results depend on the processing

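No member was called in either comparison under any alternative run. The 4 arrays and the signal over background limit what could be seen: 10 of 34 genotype intervals reached past 2-fold. Between genotypes, the count of members lower without overlap was 7 as deposited, 4 with median centring and 2 with unsuffixed probe sets only. Why it moved with median centring was not tested. With unsuffixed probe sets 26 members were tested. Atg5, Atg12, Lamp1 and Ctsd kept none and dropped out, and Lamp2 was read by another probe set, which overlapped. In that setting 4 members were higher, among them Wipi1 on another probe set (8.62% of all genes were higher and 12.2% lower). The lean to lower was thus absent there, but the genes and probe sets were not the same. The median difference, -0.09, was -0.035 with quantile normalization, 0.00094 with median centring and -0.015 with unsuffixed probe sets, where it lay 0.029 above that of all genes. It ran from -0.13 to 0.046 when 1 array was left out, with the highest value without control replicate 2. Between replicate numbers, members higher without overlap were 14 as deposited, 23 with median centring and 9 with the 75th percentile filter, which kept 23 members. Those lower were 2 as deposited (21.0% of all genes) and 3 with quantile normalization (18.1%). There was 1 with median centring (12.2%) and 1 with the mean over probe sets (22.9%). The median by number was 0.13, against 0.18 with quantile normalization, 0.32 with median centring, 0.20 with unsuffixed probe sets and 0.10 to 0.23 without 1 array. Without 1 array, some signs turned. Ranges are given only for the 2 members per role with the smallest p. By genotype these were Atg13 (-0.25 to 0.56), Wipi1 (-0.093 to 0.81), Map1lc3b (-0.013 to 0.26) and Nbr1 (-0.10 to 0.30), each without cKO replicate 2. By number they were Sqstm1 (-0.045 to 0.26), Ctsb (-0.029 to 0.38), Nbr1 (-0.016 to 0.33), Tfe3 (-0.25 to 0.11) and Tfeb (-0.20 to 0.16). Over all 34 members, the genotype sign turned for 4 without control replicate 1 and 7 without control replicate 2. It turned for 5 without cKO replicate 1 and 9 without cKO replicate 2. By number, in the same order, 2, 7, 4 and 6 members turned. By number, Tfeb was 0.15 with quantile normalization and 0.16 with median centring, and Tfe3 0.12 with median centring. A replicate block left the differences as they were, with 0 members called for genotype (median -0.09); over all genes it called 3, against 0 without it. The differences between numbers in control and in cKO correlated at 0.434 across kept probe sets, and with only 2 pairs this does not show that the numbers pair the samples. Counts without overlap were not compared with 1 array left out.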
